A study of Mus musculus with 7 samples.

Results

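The genes described here are the zinc finger genes of the mouse that carry the name Zfp followed by a number, in EGFP-sorted cells of embryonic retina. Members were taken by name and by level: a gene entered when TPM summed over its transcripts reached at least 1 in at least 3 of the 7 libraries. TPM is the share of a transcript among all transcripts of a library, scaled for length, with the same nominal total in each library. The tables name 344 such genes, 316 of them passed, and they are set here beside 12140 other genes that passed the same filter, out of 12456 in all. Of the 316, 4 reached 1 TPM in no control library (Zfp72, Zfp109, Zfp619 and Zfp455) and so had to be higher in shKmt2f to be counted. Just inside the level threshold lay Zfp607, Zfp628 and Zfp114, whose third-highest library was at 1.02, 1.03 and 1.06 TPM. Zfp459, Zfp52 and Zfp641 lay just outside it, at 0.987, 0.976 and 0.921 TPM. Because the names and the level decided membership, and both were known with results of these data in view, all counts over the members are descriptions.

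The groups were 4 shKmt2f libraries and 3 control libraries from ICR mice, an outbred stock. Retinas of embryonic day 17.5 (day 17 in the series' own design line) were electroporated with a plasmid for a short hairpin RNA against Kmt2f, another name of Setd1a, or with a control plasmid, and every retina also received an EGFP plasmid. After 2 days in explant culture the tissue was trypsinized, EGFP-positive cells were sorted, and 1 ng of total RNA was amplified with SMART-Seq v4. Whether 2 libraries of one group stem from different embryos, pools or explants is not given in the labels, so every p-value here sets a difference against the spread of these libraries, and that spread may be technical. The sex of the embryos is not given either.

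Zinc finger proteins of this kind hold runs of C2H2 fingers, short folds in which a pair of cysteines and a pair of histidines grip a zinc ion, and each finger reads a few bases of DNA. Many also carry a KRAB domain, which brings in Trim28 and with it the H3K9 methyltransferase Setdb1, heterochromatin proteins and histone deacetylases, and in embryonic cells KRAB zinc finger proteins are known for silencing retroelements and for keeping imprints. Setd1a is a methyltransferase for H3K4, a mark of active promoters. Zfp genes arose largely by tandem duplication, and many sit in clusters of near relatives.

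What the members share is best seen in the finger itself, and the stretches below also show how widely the base composition of the same fold can differ, which returns with the fold changes. Each is the first finger of the protein that is followed by the usual linker, as coded in the GENCODE transcripts of GRCm38, 5′ to 3′ on the coding strand, with the codons of the zinc-binding cysteines and histidines in capitals. Zfp758, Zfp958, Zfp37 and Zfp960 are among the members of largest rise, Zfp445 is an imprint regulator that was called higher, and Zfp422 is an abundant member that did not pass the test. The stretches lie at chr17:22375417-22375494 (plus strand), chr8:4628541-4628618 (plus), chr4:62192103-62192180 (minus), chr17:17087503-17087580 (plus), chr9:122852892-122852969 (minus) and chr6:116626707-116626784 (minus).
Zfp758: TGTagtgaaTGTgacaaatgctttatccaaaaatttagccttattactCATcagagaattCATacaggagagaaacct
Zfp958: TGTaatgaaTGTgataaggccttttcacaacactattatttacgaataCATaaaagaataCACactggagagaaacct
Zfp37: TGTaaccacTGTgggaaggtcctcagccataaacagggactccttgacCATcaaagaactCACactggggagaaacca
Zfp960: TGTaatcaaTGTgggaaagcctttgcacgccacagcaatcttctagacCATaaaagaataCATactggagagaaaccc
Zfp445: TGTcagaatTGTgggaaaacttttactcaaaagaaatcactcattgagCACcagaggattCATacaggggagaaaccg
Zfp422: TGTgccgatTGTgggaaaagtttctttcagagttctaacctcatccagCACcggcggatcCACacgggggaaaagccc
All 6 stretches are 78 bases long and lie within 1 exon. Their GC content was 33.3% in Zfp758, 32.1% in Zfp958, 50% in Zfp37, 42.3% in Zfp960, 41.0% in Zfp445 and 53.8% in Zfp422. Over the whole transcripts, Zfp758 had 35.4% GC and Zfp422 had 44.9%. Zfp445, which was called higher, had 45.7%, above Zfp422, so GC content does not sort these genes by call.

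Translated from the annotation, 314 members gave a protein, with a median of 10 fingers matching the pattern Cys-2 residues-Cys-12 residues-His-3 to 5 residues-His and a maximum of 33. A further 2 members (Zfp939 and Zfp783) are annotated as transcribed pseudogenes. No finger of this spacing was found in 12 members and at least 2 fingers in 290. A KRAB-like letter pattern was found in 156 members. The pattern is strict, so a member without it may still hold a divergent box.

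The 7 libraries summed to between 991445 and 992309 TPM, and TPM keeps no read depth, so the counting error behind each value is unknown. Setd1a itself, the gene the hairpin targets, was at 8.26, 8.0, 4.5 and 6.99 TPM in shKmt2f libraries, against 11.7, 7.83 and 7.36 TPM in control libraries. The groups overlapped, and its log2 fold change was -0.33 ± 0.23 (SE, adjusted p by limma = 0.365). Retinal identity was plain in every library: Rax, an eye field transcription factor, lay between 202 and 226 TPM in shKmt2f libraries and between 183 and 269 TPM in control libraries. Over all tested genes, control replicate 2 correlated at 0.970 to 0.978 with the shKmt2f libraries and at 0.973 and 0.967 with the other 2 controls. The measured markers of lens (3 of 5 listed), fibroblasts (2 of 5), astrocytes (2 of 3) and microglia (C1qa alone of 5) each summed to at most 1.54 TPM in any library, and the other markers of these lists and the erythroid markers were not analysed here.

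Zfp-named genes were on balance higher in shKmt2f than in control cells. Of the 316 members, 85 were called higher and 0 lower, which is 26.9% and 0%. Among the 12140 other genes, 9.97% were called higher and 3.79% lower. The 85 include all 4 members that reached 1 TPM in no control library, which the filter admitted only as higher. Of 26 members under 1 TPM in at least 2 controls, 12 were called higher. These 26 are also in the sets behind the counts below. Of 274 members at 1 TPM or more in all 7 libraries, 72 were called higher in the same fit. A call is an adjusted p under 0.05 in limma on log2(TPM + 1), Benjamini-Hochberg adjusted over all 12456 genes, and fold changes below are shKmt2f minus control on that scale, which understates changes of low genes. At an unadjusted p under 0.05 in limma, 153 of the 316 members were higher and 2 lower. Of the 12140 other genes, 2734 were higher and 1137 lower at that p. The median log2 fold change over members was 0.44 (interquartile range 0.14 to 0.81, full range -0.63 to 1.97), against 0.08 over the other genes (interquartile range -0.15 to 0.38). The fold change was positive in 268 members, 84.8%, against 58.7% of other genes. A log2 fold change of at least 1 was found in 55 members, 17.4%, against 3.76% of other genes. The adjusted p of the 85 called members lay between 0.0129 and 0.050, with a median of 0.0336, so none was under 0.01. The count rests on the full set of libraries: with 1 library left out it lay between 3 and 12, except that it was 149 without control replicate 2.

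Scaling the libraries by median ratios put the median of all genes at -0.02, where it was 0.09 without scaling, and the members' median was then 0.33, against -0.03 in the other genes. With that scaling 76 members were higher and 2 lower, and of the other genes 1043 were higher and 819 lower, where the unscaled fit gave 1210 and 460.

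Groups that did not overlap gave the same direction. In 121 members, 38.3%, every shKmt2f library lay above every control library, against 18.7% of other genes. In 5 members, 1.58%, every shKmt2f library lay below every control library, against 9.88% of other genes. These 5 were Zfp579, Zfp524, Zfp692, Zfp414 and Zfp598, named after their values were seen. Zfp598 is the sensor of collided ribosomes, and had 2.14, 3.4, 3.17 and 3.18 TPM in shKmt2f libraries, against 3.57, 3.96 and 4.85 TPM in control libraries. Its log2 fold change of -0.37 ± 0.17 (SE, adjusted p by limma = 0.178) did not pass the test.

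The controls were not alike for these genes. Averaged over the 316 members, the level relative to the mean of the 7 libraries was 0.24, 0.32, 0.12 and 0.18 log2 units in shKmt2f libraries, against -0.54, 0.02 and -0.35 in control libraries. The same average over the other genes was 0.03, 0.12, 0.02 and 0.04 in shKmt2f libraries, against -0.21, 0.01 and -0.01 in control libraries. Control replicate 2 lay below all 4 shKmt2f libraries, 0.10 log2 units under the lowest of them and 0.37 above the next control. Summed over members, TPM was 6400, 6701, 5830 and 6211 in shKmt2f libraries, against 4115, 5393 and 5154 in control libraries, and the groups did not overlap.

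**Figure D1:**
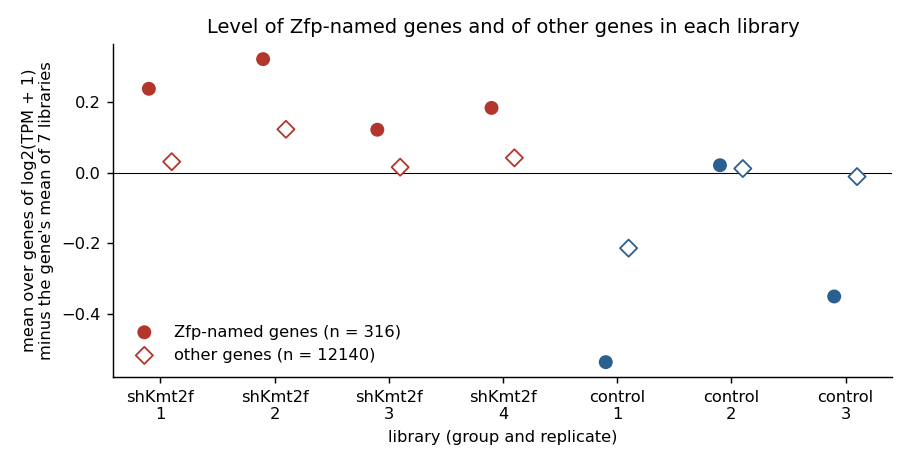
Mean level of the 316 Zfp-named genes (filled circles) and of 12140 other genes (open diamonds) in each library, as the mean of log2(TPM + 1) minus each gene's own mean over 7 libraries; shKmt2f in red, control in blue. The Zfp-named genes sit between 0.12 and 0.32 in shKmt2f libraries, and at -0.54, 0.02 and -0.35 in control replicates 1, 2 and 3.

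Control replicate 2 was the highest control in 203 members, 64.2%, against 38.9% of other genes. In 82 of the 85 called members it was the highest control, and its median ratio to the mean of control replicates 1 and 3 there was 2.00. Set against control replicate 2 alone, the members' median log2 fold change was 0.19, and that of the other genes 0.05. All 4 shKmt2f libraries exceeded control replicate 2 in 158 members, 50%, against 33.5% of other genes.

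Taken one by one, each library changed the number of calls. Without shKmt2f replicate 1, 2, 3 or 4, the members called higher were 3, 3, 12 and 11. Without control replicate 1, 2 or 3 they were 3, 149 and 4. The median log2 fold change stayed positive throughout, between 0.34 without control replicate 1 and 0.57 without control replicate 2. For the other genes these fits gave 279 to 2874 calls, where the fit with 7 libraries gave 1670. Only Zfp667 and Zfp109 kept their call in each of the 7 fits, and 69 of the 85 lost it in 6 of them.

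**Figure D2:**
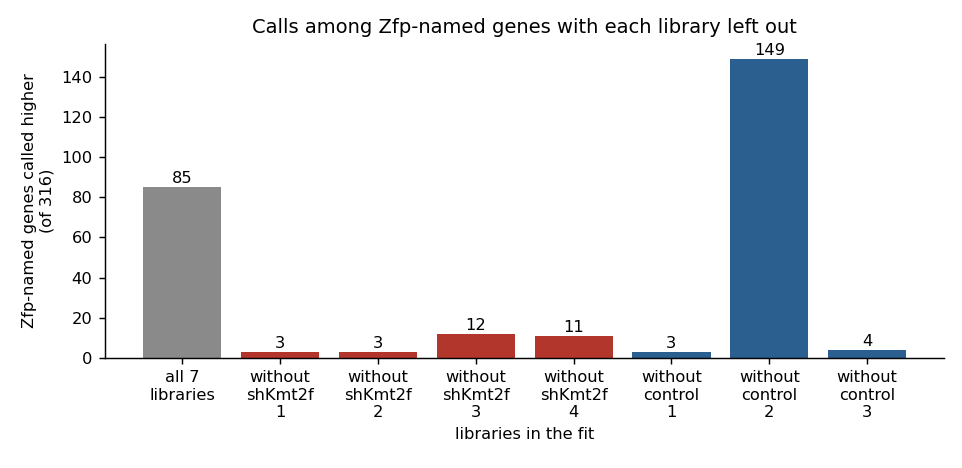
Number of the 316 Zfp-named genes called higher (limma adjusted p under 0.05) with all 7 libraries and with each library left out; bars start at 0. The count is 85 with all libraries, between 3 and 12 without any one library other than control replicate 2, and 149 without control replicate 2.

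Zfp667, a KRAB zinc finger gene, and Zfp109 are therefore given in full, chosen after their values were seen. Zfp667 (chr7:6286579-6307883 on GRCm38) had 11.1, 13.4, 10.5 and 9.38 TPM in shKmt2f libraries, against 4.52, 5.56 and 4.57 TPM in control libraries. Its log2 fold change was 1.03 ± 0.16 (SE, adjusted p by limma = 0.0129). Zfp109 (chr7:24227572-24237560) had 2.22, 3.35, 2.5 and 2.22 TPM in shKmt2f libraries, against 0.654, 0.915 and 0.659 TPM in control libraries, and its log2 fold change was 1.03 ± 0.16 (SE, adjusted p by limma = 0.0129). In both genes the 3 controls lay close together and all shKmt2f libraries lay above them. Zfp109 is 1 of the 4 members that reached the level filter through shKmt2f libraries alone, all 4 of which were called higher, so its call and its stability are fixed in part by the filter and support nothing about the members.

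The 10 members of largest rise among those called, with a mean of at least 5 TPM over the 7 libraries, had log2 fold changes of 1.54 to 1.97, and their shKmt2f means were 2.88 to 4.20 times the control means. Leaving out 1 library ended the call in 4 of 7 fits for Zfp958, in 5 for Zfp711 and in 6 for each of the other 8, and the highest adjusted p by limma over these fits was 0.168, for Zfp120. Zfp758 (chr17:22361453-22377281), with 12 fingers and the KRAB pattern, had 9.6, 8.31, 8.61 and 8.15 TPM in shKmt2f libraries, against 0.727, 5.01 and 0.45 TPM in control libraries. Its means were 8.67 ± 0.652 TPM in shKmt2f and 2.06 ± 2.56 TPM in control (SD, n = 4 and 3), and its log2 fold change was 1.97 ± 0.43 (SE, adjusted p by limma = 0.0283). Control replicate 2 lay between the other controls and the shKmt2f libraries, and against it alone the log2 fold change was 0.68. Zfp280d (chr9:72274860-72363777), with 7 fingers and the highest level of the 10, had 51.6, 55.7, 52.2 and 63.9 TPM in shKmt2f libraries, against 9.1, 36.8 and 8.56 TPM in control libraries. The log2 fold change was 1.88 ± 0.44 (SE, adjusted p by limma = 0.0344). Again control replicate 2 was the high control, below the lowest shKmt2f library.

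Zfp946 (chr17:22424222-22456689) and Zfp943 (chr17:21962552-22071168) are KRAB-pattern neighbours of Zfp758 on chromosome 17. Zfp946 had 17.7, 17.8, 16.4 and 14.6 TPM in shKmt2f libraries, against 2.43, 12.4 and 1.63 TPM in control libraries, and its log2 fold change was 1.83 ± 0.49 (SE, adjusted p by limma = 0.045). Zfp943 had 12.3, 15.3, 11.6 and 13 TPM in shKmt2f libraries, against 2.16, 9.04 and 1.62 TPM in control libraries, and its log2 fold change was 1.68 ± 0.41 (SE, adjusted p by limma = 0.0356). In both, control replicates 1 and 3 were near 2 TPM and control replicate 2 was several times higher, yet still below each shKmt2f library. Zfp40 (chr17:23173869-23193252), with 16 fingers, lies further along the same cluster. It had 8.91, 8.39, 6.93 and 9.87 TPM in shKmt2f libraries, against 1.51, 5.63 and 1.09 TPM in control libraries, and its log2 fold change was 1.54 ± 0.36 (SE, adjusted p by limma = 0.0321).

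Zfp711 (chrX:112600526-112635070) codes for a protein that binds CpG island promoters together with the histone demethylase Phf8, and its human counterpart is a gene of X-linked intellectual disability. It had 22, 22.4, 14.2 and 17 TPM in shKmt2f libraries, against 2.92, 10.3 and 3.34 TPM in control libraries, and its log2 fold change was 1.76 ± 0.36 (SE, adjusted p by limma = 0.0237). The groups did not overlap, and shKmt2f replicates 1 and 2 were the highest. Of 6 X-linked members 3 were called higher, the others being Zfp182 and Zfp449, and their median log2 fold change was 0.84. The Y-linked gene Uty had 0.0283, 0.0425, 0.0197 and 0.0403 TPM in shKmt2f libraries, against 1.78, 2.24 and 0.0929 TPM in control libraries, and Eif2s3y showed the same split. Kdm5d, which is also Y-linked, was at 1.42, 1.25, 1.17 and 1.31 TPM in shKmt2f libraries, against 2.32, 3.37 and 1.26 TPM in control libraries. All of these genes were highest in control replicates 1 and 2, but Kdm5d was not near 0 elsewhere, and the part of this in the X-linked values was not tested. Without the 6 X-linked genes, 82 of 310 members were called higher.

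Zfp37 (chr4:62189540-62231047), with 12 fingers, had 20.3, 16.2, 16.3 and 16.4 TPM in shKmt2f libraries, against 2.77, 11.1 and 2.31 TPM in control libraries. Its log2 fold change was 1.77 ± 0.40 (SE, adjusted p by limma = 0.0301), and shKmt2f replicate 1 stood above the other 3, which were nearly equal. Zfp958 (chr8:4613167-4630231), with 13 fingers and the KRAB pattern, had 18.2, 18, 17.6 and 18.3 TPM in shKmt2f libraries, against 2.91, 10.3 and 3.18 TPM in control libraries. The shKmt2f libraries spanned less than 1 TPM and the log2 fold change was 1.74 ± 0.34 (SE, adjusted p by limma = 0.0203). Zfp120 (chr2:150114406-150136708) had 12.8, 13.8, 11 and 13.9 TPM in shKmt2f libraries, against 2.16, 9.89 and 1.33 TPM in control libraries, and its log2 fold change was 1.68 ± 0.46 (SE, adjusted p by limma = 0.0473). Control replicate 2 came within about 1 TPM of the lowest shKmt2f library there. Zfp960 (chr17:17064113-17089628) had 12, 11.7, 9.61 and 12 TPM in shKmt2f libraries, against 1.95, 7.8 and 1.89 TPM in control libraries, and its log2 fold change was 1.54 ± 0.36 (SE, adjusted p by limma = 0.0322). It shares 84.5% of its 50-base words with other genes, so reads could have been divided among copies and its value is uncertain.

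**Figure D3:**
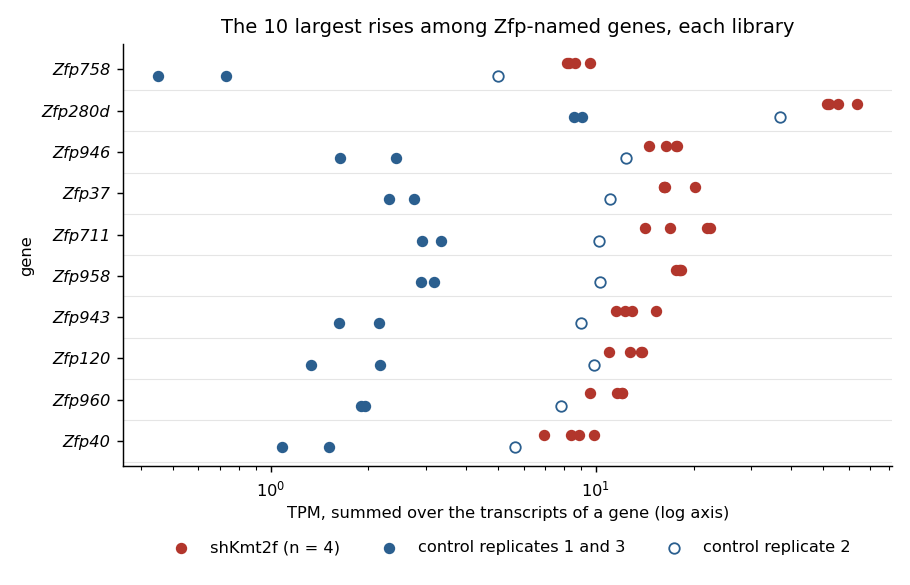
TPM of the 10 members of largest rise in each library, on a log axis, with shKmt2f in red above and control in blue below for each gene; the open circle is control replicate 2. In each gene the 4 shKmt2f libraries lie above all controls, and control replicate 2 lies apart from control replicates 1 and 3.

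Of the 5 most abundant members, 1 passed the test. Zfp950 (chr19:61053840-61140840), the member of highest mean level, had 403, 273, 281 and 330.3 TPM in shKmt2f libraries, against 177, 208 and 163 TPM in control libraries. The log2 fold change was 0.80 ± 0.15 (SE, adjusted p by limma = 0.0202), the groups did not overlap, and the call was lost in 3 of the 7 fits that left out a library. Correction on GC content ended it, at 0.38 (adjusted p by limma = 0.106), and correction on GC content and length did not, at 0.63 (adjusted p by limma = 0.0426). Most of the TPM of Zfp950 lay in short transcripts, on which its rank by level and its fold change rest. That of 192 bases had 280, 192, 203 and 216 TPM in shKmt2f libraries, against 162, 152 and 133 TPM in control libraries. That of 171 bases had 104, 68.7, 65 and 102 TPM in shKmt2f libraries, against 6.84, 44.6 and 22.6 TPM in control libraries. A transcript of 2568 bases had 5.11, 3.87, 3.08 and 3.02 TPM in shKmt2f libraries, against 1.00, 2.14 and 1.05 TPM in control libraries. Zfp523, the mouse counterpart of human ZNF76 and a relative of Zfp143, had 255, 266, 197 and 237 TPM in shKmt2f libraries, against 218, 252 and 322 TPM in control libraries. Its log2 fold change of -0.14 ± 0.16 (SE, adjusted p by limma = 0.593) lay within the spread of either group. Zfp422, known as Krox-26 in tooth development, had 212, 233, 211 and 220.3 TPM in shKmt2f libraries, against 170.5, 216 and 211 TPM in control libraries, and its log2 fold change was 0.14 ± 0.11 (SE, adjusted p by limma = 0.407).

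Counts over lists of members by role are to be read against the 26.9% of all members and 9.97% of other genes called higher. Members whose proteins act on RNA, ribosomes or the spindle did not pass the test: 0 of 9 were called in either direction, with a median log2 fold change of 0.20. Zfp706, a small protein implicated in exit from pluripotency in mouse embryonic stem cells, had 259, 277, 242 and 236 TPM in shKmt2f libraries, against 223, 223 and 235 TPM in control libraries. Its groups did not overlap, the log2 fold change was 0.16 ± 0.09 (SE, adjusted p by limma = 0.286), and after correction for GC content it was -0.47. Zfp207, a spindle protein that loads Bub3 and that also takes part in splicing, had 169, 182, 172 and 181 TPM in shKmt2f libraries, against 108, 160.0 and 121 TPM in control libraries. All shKmt2f libraries were above all controls, and the log2 fold change of 0.46 ± 0.14 (SE, adjusted p by limma = 0.0562) missed the threshold. Zfp385a, an RNA-binding partner of p53, averaged 49 ± 2.7 TPM in shKmt2f and 42.7 ± 4.57 TPM in control (SD, n = 4 and 3), with a log2 fold change of 0.20 ± 0.11 (SE, adjusted p by limma = 0.27). After correction for GC content and length it had 0.32 with an adjusted p of 0.0417 in limma.

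Of the members known from neural development, 3 of 8 tested were called higher and 0 lower, with a median log2 fold change of 0.50. Zfp365, whose protein binds Disc1, had 36.5, 46.7, 36.5 and 34.2 TPM in shKmt2f libraries, against 18.8, 24.8 and 26.6 TPM in control libraries, and its log2 fold change was 0.70 ± 0.16 (SE, adjusted p by limma = 0.0307). Zfp148 had 24.4, 22.7, 17 and 21.1 TPM in shKmt2f libraries, against 9.01, 16.5 and 9.71 TPM in control libraries, and its log2 fold change was 0.85 ± 0.22 (SE, adjusted p by limma = 0.0392). Zfp292, a large gene tied to neurodevelopmental disorder in human, had 10.5, 10.6, 7.21 and 10.2 TPM in shKmt2f libraries, against 1.97, 7.38 and 2.65 TPM in control libraries. Its log2 fold change was 1.23 ± 0.33 (SE, adjusted p by limma = 0.0444), and it is the only called member whose groups overlapped, since control replicate 2 exceeded shKmt2f replicate 3. Zfp536, which restrains neuronal differentiation, averaged 35.7 ± 4.89 TPM in shKmt2f and 29.2 ± 7.58 TPM in control (SD, n = 4 and 3), with a log2 fold change of 0.31 ± 0.19 (SE, adjusted p by limma = 0.312). Zfp423, a partner of Ebf factors needed for the cerebellum, averaged 25.5 ± 3.8 TPM in shKmt2f and 16.5 ± 6.86 TPM in control (SD, n = 4 and 3), with a log2 fold change of 0.66 ± 0.26 (SE, adjusted p by limma = 0.113). Control replicate 3 of Zfp423 lay inside the shKmt2f range. Leaving out 1 library ended the call in 6 of 7 fits for Zfp365, in 6 for Zfp148 and in 6 for Zfp292. None of the 8 was called after correction on GC content and length, with log2 fold changes of 0.55 (adjusted p by limma = 0.0536) for Zfp365, 0.46 (adjusted p by limma = 0.0751) for Zfp148 and 0.66 (adjusted p by limma = 0.0813) for Zfp292.

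Of 10 members that work with chromatin complexes, 1 was called higher and 0 lower, at a median log2 fold change of 0.28. That gene was Zfp281, a partner of Nanog and of the NuRD complex in mouse embryonic stem cells. It had 17.9, 18.9, 16.5 and 20.4 TPM in shKmt2f libraries, against 4.74, 14.8 and 4.98 TPM in control libraries, its log2 fold change was 1.25 ± 0.33 (SE, adjusted p by limma = 0.041), and the call was lost in 6 of the 7 fits that left out a library. The call ended too after correction on GC content and length, at a log2 fold change of 0.79 (adjusted p by limma = 0.07). Zfp410, the dedicated activator of the NuRD helicase gene Chd4, averaged 97 ± 9.0 TPM in shKmt2f and 77.4 ± 14.1 TPM in control (SD, n = 4 and 3), with a log2 fold change of 0.33 ± 0.14 (SE, adjusted p by limma = 0.137). Zfp532 averaged 96.6 ± 13.2 TPM in shKmt2f and 98.5 ± 35.3 TPM in control (SD, n = 4 and 3), and Zfp219, a cofactor of Sox9 in cartilage, averaged 44.7 ± 3.38 TPM in shKmt2f and 49 ± 14.1 TPM in control (SD, n = 4 and 3). Neither differed by more than its spread, with log2 fold changes of 0.02 ± 0.22 (SE, adjusted p by limma = 0.968) for Zfp532 and -0.10 ± 0.18 (SE, adjusted p by limma = 0.75) for Zfp219.

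Among KRAB members with known genomic targets, 2 of 6 tested were called higher and 0 lower, with a median log2 fold change of 0.58. Zfp445, which maintains imprints together with Zfp57, had 29.6, 36.1, 21 and 28.3 TPM in shKmt2f libraries, against 7.74, 17 and 12.2 TPM in control libraries. The log2 fold change was 1.20 ± 0.26 (SE, adjusted p by limma = 0.0272), and the groups did not overlap. Zfp809, which silences proviruses in mouse embryonic stem cells, had 7.67, 9.2, 7.6 and 8.27 TPM in shKmt2f libraries, against 5.46, 5.72 and 4.6 TPM in control libraries, and its log2 fold change was 0.55 ± 0.14 (SE, adjusted p by limma = 0.039). Here control replicate 2 lay with the other controls. The call was lost in 5 of 7 such fits for Zfp445 and in 6 for Zfp809. Zfp932, a repressor of endogenous retroviruses, had 30.9, 29.2, 30.4 and 32.7 TPM in shKmt2f libraries, against 16.5, 31.5 and 14.9 TPM in control libraries. Control replicate 2 lay inside the shKmt2f range, the log2 fold change of 0.61 ± 0.23 (SE, adjusted p by limma = 0.108) did not pass, and 55.5% of its 50-base words occur in other genes. Zfp568, the repressor of a placental Igf2 promoter in mouse, averaged 9.5 ± 1.9 TPM in shKmt2f and 11.1 ± 3.93 TPM in control (SD, n = 4 and 3), with a log2 fold change of -0.17 ± 0.24 (SE, adjusted p by limma = 0.659). Zfp57 itself averaged 11 ± 0.953 TPM in shKmt2f and 8.1 ± 4.69 TPM in control (SD, n = 4 and 3), with a log2 fold change of 0.52 ± 0.29 (SE, adjusted p by limma = 0.259). Zfp42, listed for pluripotency, was not analysed here.

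Of the members with the KRAB pattern 57 of 156, 36.5%, were called higher, with a median log2 fold change of 0.64. Of the members without it 28 of 158, 17.7%, were, with a median of 0.20, and the difference between the classes was not tested. Base composition moved with the class, with a median transcript GC content of 43.5% in KRAB-pattern members and 49.7% in the others. All tested genes were split into 5 classes of equal size by GC content. In the lowest class 46 of 91 KRAB-pattern members and 23 of 42 others were called higher, 50.5% and 54.8%. In the other classes together the counts were 11 of 65 with the pattern and 5 of 116 without it, 16.9% and 4.31%. GC content still differed there, with medians of 48.5% with the pattern and 53.3% without it. After correction on GC content and length their median log2 fold changes were 0.30 and 0.17. Genes not named Zfp that carry the pattern gave 19 higher of 81, 23.5%, with a median log2 fold change of 0.55 and a GC content of 40.5%. Those with at least 5 fingers and no such pattern gave 8 higher of 68, 11.8%, and 2 lower. Their median log2 fold change was 0.16 and their GC content 49.2%. Among all genes not named Zfp, 9.97% were called higher. By finger number, 2 of 12 members with no finger found, 4 of 45 with 1 to 4, 19 of 80 with 5 to 9, 37 of 111 with 10 to 14 and 23 of 66 with 15 or more were called higher. Median GC content moved with these classes, at 48.1%, 52.3%, 48.2%, 45.5% and 42.5% in that order. After correction on GC content and length the median log2 fold changes were 0.15, 0.20, 0.22, 0.32 and 0.25. The part of finger number was not tested.

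Across members, the log2 fold change ran closely with the GC content of the transcripts, with a Spearman coefficient of -0.78 over 316 members that share their 7 libraries, and -0.46 over the other genes. The members are poor in GC, with a median of 46.7% against 50.4% in other genes, and long, with a median of 2487 against 1566 bases. Of the 85 called members 69 lay in the lowest of the 5 classes by GC content (up to 44.9%). In that class 51.5% of 134 members and 28.2% of 2357 other genes were called higher, with median log2 fold changes of 0.88 and 0.49. The members of that class were also poorer in GC than its other genes, with medians of 40.8% and 42.5%. The class therefore does not match the sets in GC content. In class 2 the shares were 14.3% and 13.2%, in class 3 17.1% and 5.25%, in class 4 0% and 2.2%, and in class 5, the highest, 2.13% and 1.76%. All 10 members of largest rise lay in the lowest class, between 35.4% and 40.2% GC.

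The libraries themselves differed along GC content. Over all genes, the Spearman coefficient between GC content and a gene's level relative to its mean was -0.37, -0.26, -0.32 and -0.45 in shKmt2f libraries, against 0.35, -0.11 and 0.60 in control libraries. Control replicate 2 had the sign of the shKmt2f libraries. After a loess correction of each library on GC content, 33 members, 10.4%, were called higher and 0 lower, against 6.09% and 2.77% of other genes, and the median log2 fold change was 0.34 against 0.14. The corrected fold change still ran with GC content over members, with a Spearman coefficient of -0.23, against 0.06 over other genes. After correction on GC content and length, 36 members, 11.4%, were called higher and 1 lower, against 7.69% and 3% of other genes, with medians of 0.26 and 0.13. Of the 85 members called without correction, 35 stayed called higher after it, 8 of the 10 largest rises among them, with log2 fold changes of 0.77 to 1.41 over the 10. Zfp946 and Zfp120 missed the threshold, with adjusted p of 0.0581 and 0.0588 in limma.

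**Figure D4:**
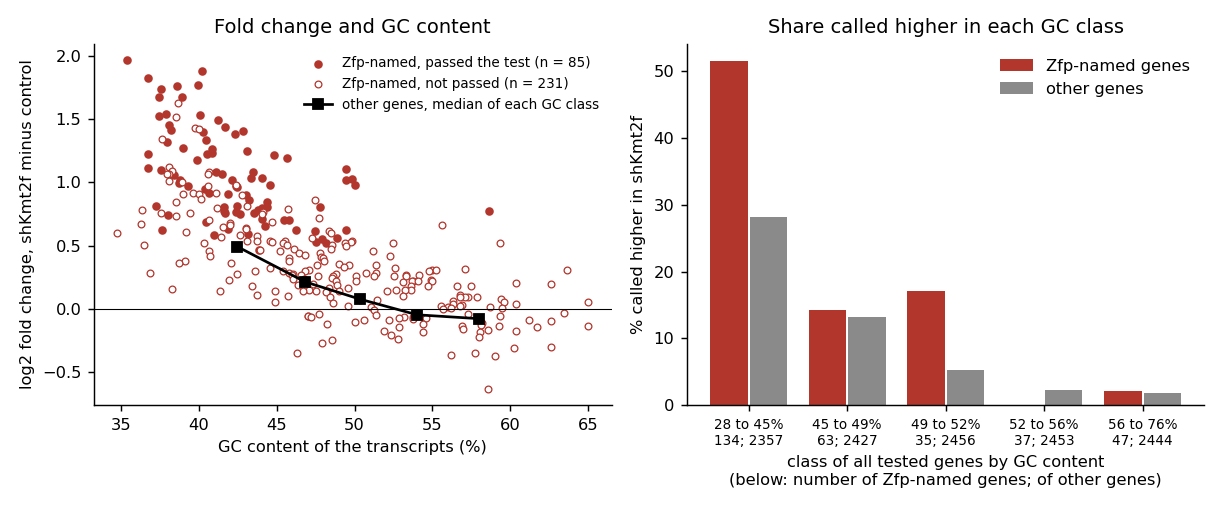
Left, log2 fold change (shKmt2f minus control) against transcript GC content for the 316 Zfp-named genes (filled, called higher; open, not), with the median of other genes in each class as black squares. Right, percent called higher in each of 5 classes of all tested genes by GC content, for Zfp-named genes in red and other genes in grey. In the lowest class 51.5% and 28.2% were called, at median GC contents of 40.8% and 42.5%.

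Level was taken into account by classes. In the 5 level classes of all tested genes, from low to high, 22.5%, 31.7%, 31.2%, 18.4% and 14.3% of members were called higher, against 6.47%, 9.62%, 12.5%, 12% and 9.16% of other genes. The highest class holds only 14 members.

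Members were also grouped by position in the genome. A run of at least 4 members with starts at most 1 Mb apart was called a cluster, which gave 21 clusters with 173 members. Of these 50 were called higher, 28.9%, with a median log2 fold change of 0.52, and of the 143 members outside clusters 35 were, 24.5%, with a median of 0.35. The largest cluster, at chr17:21008903-23599487, holds 21 members, 18 of them with the KRAB pattern, among them Zfp758, Zfp946, Zfp943 and Zfp40. Of the 21, 8 were called higher, and the median log2 fold change was 1.02 at a median GC content of 38.5%. A second cluster on that chromosome, at chr17:32765496-33631779, had 6 of 13 called and a median of 0.81. On chromosome 13, at chr13:67038596-67827002, 7 of 17 were called with a median of 0.75, and 6 of the 17 share over 20% of their 50-base words with other genes.

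Small clusters lay at both ends. All 4 members at chr8:71882019-71993792 (Zfp709, Zfp882, Zfp617 and Zfp961) were called higher, with a median of 1.02, and so were 4 of 5 at chr7:41633203-43593235, with a median of 1.03. None of 10 was called at chr6:47819266-48623227, with a median of 0.02 at 54.7% GC. None of 6 was called at chr7:4915217-5053723, where the median was -0.15 at 59.4% GC and no member has the KRAB pattern. After correction on GC content and length these 2 cluster medians were 0.13 and 0.07, and that of the largest cluster was 0.37.

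**Figure D5:**
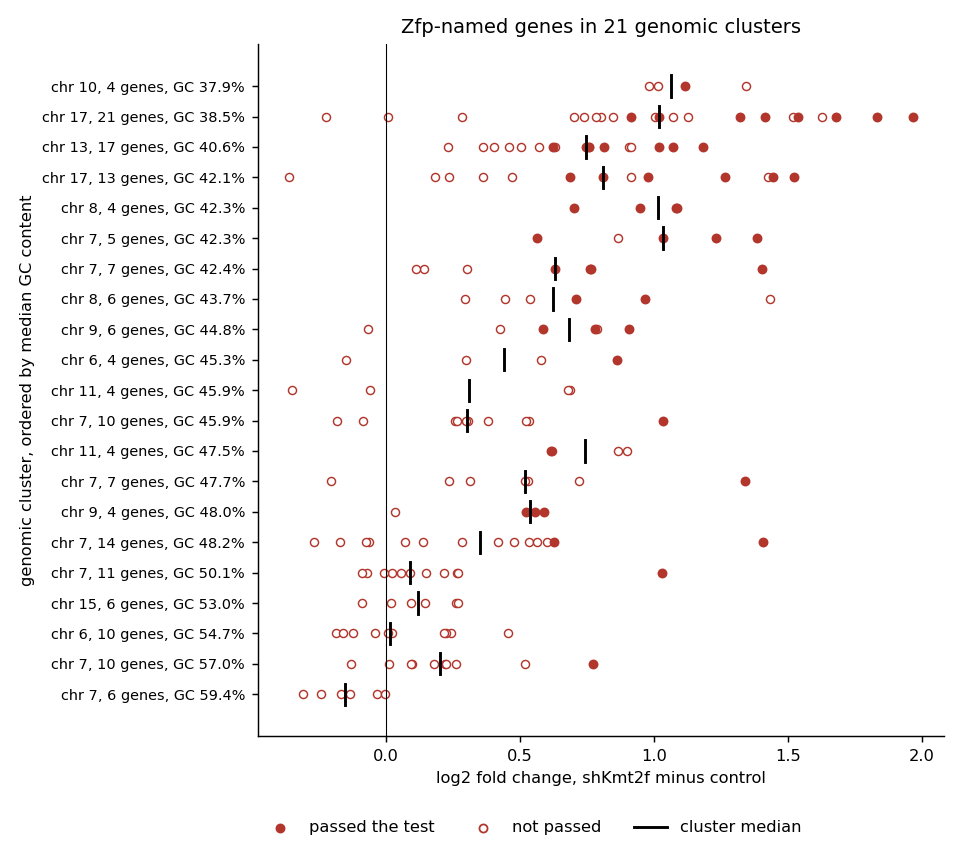
Log2 fold change (shKmt2f minus control) of each Zfp-named gene in 21 genomic clusters, ordered from low median GC content at the top to high at the bottom; filled points passed the test, open points did not, and black bars are cluster medians. Cluster medians run from 1.06 at 37.9% GC to -0.15 at 59.4% GC.

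Since many members moved together, their promoters were read as well. RefSeq windows on GRCm38.p6, from 250 bases before to 50 after the start, were found for 263 members. The median number of CG dinucleotides was 13.5 in 74 members called higher, 16 in 189 not called, and 7 over all 32851 promoters in the table. The letters CCGGAAG, searched on both strands, occurred in 21.7% of member promoters and 8.86% of all promoters, and CCAAT in 46.0% and 37.4%. All promoters were not limited to genes that passed the level filter, as the members were. These differences can therefore not be read as a trait of Zfp-named genes. In members called higher and not called, CCGGAAG occurred in 25.7% and 20.1%, and CCAAT in 50% and 44.4%, which was not tested. The Spearman coefficient between fold change and CG count was -0.31 over the 263. As examples, the promoters of 2 genes of largest rise follow with CG in capitals, Zfp758 at chr17:22361213-22361512 (plus strand) with 20 and Zfp958 at chr8:4612920-4613219 (plus strand) with 12.
Zfp758 promoter: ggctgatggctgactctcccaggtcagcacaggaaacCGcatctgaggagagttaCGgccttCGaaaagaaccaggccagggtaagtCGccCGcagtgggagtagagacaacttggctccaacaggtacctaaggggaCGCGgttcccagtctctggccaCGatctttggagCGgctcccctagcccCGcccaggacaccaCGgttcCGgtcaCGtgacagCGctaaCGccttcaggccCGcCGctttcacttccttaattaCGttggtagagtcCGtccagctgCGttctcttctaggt
Zfp958 promoter: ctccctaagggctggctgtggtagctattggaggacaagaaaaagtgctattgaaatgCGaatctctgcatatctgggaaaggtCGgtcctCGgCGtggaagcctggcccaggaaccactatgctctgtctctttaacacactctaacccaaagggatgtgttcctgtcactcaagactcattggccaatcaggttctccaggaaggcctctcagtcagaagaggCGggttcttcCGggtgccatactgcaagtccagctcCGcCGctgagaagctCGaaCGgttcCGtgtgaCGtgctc
Both gene starts carry more CG than the median of 7 over all promoters, a set not limited by level. Against the median of 15 over member promoters, Zfp758 lay above and Zfp958 below. The fingers of these genes printed above had 33.3% GC in Zfp758 and 32.1% in Zfp958.

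At the level of single transcripts, 11 of 793 member transcripts with enough signal were called higher, 1.39%, and 0 lower, in limma on log2(TPM + 0.1). Of other transcripts 0.527% were higher and 0.45% lower. Without control replicate 2 the calls were 195 higher and 1 lower. They were 6 without control replicate 3 and 1 without any other single library, all of them higher. Among the 11, chosen after their values were seen, the protein-coding transcript of Zfp266 ran at 39.9, 44.7, 35.7 and 38.2 TPM in shKmt2f libraries, against 16.7, 24.2 and 19.3 TPM in control libraries. Its log2 fold change was 0.99 ± 0.15 (SE, adjusted p by limma = 0.0403). A short noncoding transcript of Zfp260 ran at 6.38, 18.8, 12 and 9.74 TPM in shKmt2f libraries and is listed at 0 in all 3 control libraries. In the authors' deposited table, 102 of 1119 member transcripts were higher at a q-value under 0.05, 9.12%, and 1 lower, 0.0894%, against 3.32% and 2.13% of other transcripts. The one that was lower in the authors' deposited table belongs to Zfp598, with an effect of -0.42, taken to be on the natural log scale, and q = 0.0264.

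The partners that KRAB zinc finger proteins call on gave a count near that of other genes. Of 38 measured co-repressor and heterochromatin genes, 4 were called higher and 1 lower, beside 9.97% higher and 3.79% lower among all genes that are not named Zfp. The median log2 fold change was 0.13, beside 0.08 over those genes. With 1 library left out the calls numbered 1 (without control replicate 3) to 11 (without control replicate 2). Trim28, the core co-repressor, had 248, 359.9, 320.4 and 291 TPM in shKmt2f libraries, against 404, 364 and 454 TPM in control libraries. Its groups did not overlap and its log2 fold change was -0.42 ± 0.14 (SE, adjusted p by limma = 0.0765), which did not pass. The called genes were Setdb2, an H3K9 methyltransferase, at 1.17 ± 0.18 (SE, adjusted p by limma = 0.0124); Smarcad1, a chromatin remodeler, at 0.58 ± 0.13 (SE, adjusted p by limma = 0.0295); Fam208a, a subunit of the HUSH complex, at 0.87 ± 0.21 (SE, adjusted p by limma = 0.0357); Morc3 at 1.41 ± 0.34 (SE, adjusted p by limma = 0.0358); and, lower, Uhrf1, which guides Dnmt1 to replicating DNA, at -1.19 ± 0.21 (SE, adjusted p by limma = 0.017). Uhrf1 had 17.7, 33.4, 20.9 and 25.5 TPM in shKmt2f libraries, against 49.9, 51.3 and 65.8 TPM in control libraries. The most abundant genes of the list, H3f3a and H3f3b for histone H3.3, were at 0.20 ± 0.08 (SE, adjusted p by limma = 0.129) and -0.04 ± 0.08 (SE, adjusted p by limma = 0.787). After correction on GC content and length, Setdb2 was still called higher and Uhrf1 lower. The other calls ended, with log2 fold changes of 0.35 (adjusted p by limma = 0.0637) for Smarcad1, 0.14 (adjusted p by limma = 0.381) for Fam208a and 0.94 (adjusted p by limma = 0.132) for Morc3, and H3f3b was then called lower at -0.51 (adjusted p by limma = 0.0421). Leaving out 1 library ended the call in 6 of 7 fits for Smarcad1, in 6 for Fam208a, in 5 for Morc3, in 1 for Uhrf1 and in 0 for Setdb2.

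In other zinc finger families by name 19 genes were called higher and 1 lower (Zc3hc1), and there were between 0 and 30 calls with 1 library left out. Called higher were 8 of 33 Zbtb genes, 1 of 17 Zkscan and Zscan genes, 4 of 28 Zc3h and Zcchc genes, 5 of 9 Zmym and Zmynd genes and 1 of 14 Klf and Sp genes, beside 9.97% of all genes not named Zfp, so several of these shares lie near that of other genes. In all, 10 were higher and 2 lower after correction on GC content and length. Median log2 fold changes were 0.28, 0.12, 0.28, 0.64 and 0.22 in that order. The Zmym and Zmynd genes had the lowest median GC content of these families, 43.3%, and the Zbtb genes the highest, 50.8%.

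Markers of cell types also differed between the groups, in both directions, and their part in these values was not tested. Neurogenic and photoreceptor precursor markers had 5 higher and 0 lower of 7, and summed to 2078 to 2157 TPM in shKmt2f libraries, against 806 to 1195 TPM in control libraries. Those sums hide a split, since Atoh7 of this list, which starts ganglion cell fate, had 20.4, 37.3, 429 and 428 TPM in shKmt2f libraries, against 99, 101 and 312 TPM in control libraries. The progenitor factor Six3 had 18.1, 29, 45.9 and 48.6 TPM in shKmt2f libraries, against 44.1, 56.7 and 55.1 TPM in control libraries, and Cbx3, a heterochromatin protein of the co-repressor list, had 177, 167, 75.5 and 79.1 TPM in shKmt2f libraries, against 119, 139 and 88.3 TPM in control libraries. In these genes, chosen after their values were seen, shKmt2f replicates 1 and 2 stood apart from replicates 3 and 4. Ganglion, amacrine and horizontal cell markers had 6 higher and 0 lower of 9 tested, with sums of 132 to 140 TPM in shKmt2f libraries, against 87.3 to 104 TPM in control libraries. Retinal progenitor markers had 0 higher and 2 lower of 11, with sums of 992.02 to 1118 TPM in shKmt2f libraries, against 1145 to 1470 TPM in control libraries. Of the retinal pigment epithelium markers 1 was tested and was higher (Dct), and 3 in the tables summed to 5.67 to 7.62 TPM in shKmt2f libraries, against 3.80 to 4.42 TPM in control libraries. The ganglion cell factor Pou4f2 stayed at or below 0.13 TPM in every library. Endothelial markers summed to 72.6 to 109 TPM in shKmt2f libraries and 62.3 to 105 TPM in control libraries, nearly all of it Kdr and Cldn5, with Pecam1 at or below 0.16 TPM. In sorted bulk cells, fewer cells of a type and less RNA per cell cannot be told apart.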

How the data were processed

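Per the submitters' processing notes, the authors used Salmon 0.11.3 and sleuth 0.30.0 with GRCm38.p6. They deposited 1 table for each of 7 libraries, with TPM for each transcript, per the file headers. Each deposited table, per the file headers, also holds the authors' p-value, their q-value and an effect on the natural log scale; a sentence that prints one of these says so. Of 55475 rows, 71 hold no TPM; the other 55404 were summed into 16143 genes. Salmon assigns reads shared by near-identical genes in proportion, so paralogs can exchange signal: 37 members share over 20% of their 50-base words with other genes, and 75 of the other 279 were called higher. No read counts were used, so depth is unknown.

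Genes with at least 1 TPM in 3 libraries were compared by limma 3.58.1 under R 4.3.3. The values were log2(TPM + 1), the model held the group alone, the prior was trended and robust, and Benjamini-Hochberg adjusted p had a threshold of 0.05. Single transcripts used log2(TPM + 0.1). GC content and length were TPM-weighted over a gene's transcripts, and each library was corrected on them by loess (span 0.3) as an alternative. The fits were tested on simulated data with independent normal noise for each gene. Those data lack the shared shifts along GC content seen here, so that test cannot speak for calls made under them. Further alternatives were scaling, filters, pseudocount, the transcripts summed, the replicate number as a block and leaving out each library. Named genes were the 10 largest rises among called members with a mean of at least 5 TPM (no member was called lower), the 5 of highest level, up to 3 of highest level in each role list, the 3 on either side of the level threshold, and the called and the most abundant co-repressor genes. The members, lists and this rule were chosen with earlier results of these data known. Positions are from the GRCm38 annotation, and promoters are from RefSeq on GRCm38.p6.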

Additional observations from a re-analysis of the deposited data

Results flagged for a closer look

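Zfp37 in shKmt2f libraries had 1 library far from the others: replicate 1 was at 20.3 TPM, against 16.2 to 16.4 TPM in the other 3, and the gap took a share of 0.962 of the group's range. Zfp960 had its lowest library apart, replicate 3 at 9.61 TPM against 11.7 to 12 TPM, with a share of 0.845. Both shares pass Dixon's limit for 4 libraries; 31 named genes and summaries were looked at this way, and chance alone passes the limit in about 1 in 20 groups.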

How the results depend on the processing

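The direction of the members' median log2 fold change held under all alternatives (0.26 to 0.57), but the number of calls did not. With 1 library left out, calls in either direction ranged from 3 to 150 for members, 279 to 2874 for other genes, 1 to 11 for the co-repressor list, 0 to 30 for the other zinc finger families and 1 to 196 for member transcripts. Correction on GC content gave 33 members, 1075 other genes, 2 co-repressor genes and 10 genes of other families called. Correction on GC content and length gave 37, 1297, 3 and 12, and of the 37 members 35 were among the 85 called higher without it. The labels do not say whether replicate numbers pair the libraries. Deviations of same-numbered libraries from their group means correlated at only 0.0793, 0.0651 and 0.0597. These values cannot decide on pairing, since the controls also differed from each other along GC content. With the number as a replicate block 80 members, 13 genes of other families and 0 member transcripts were called, and with the replicate block after correction on GC content and length 12 members, 485 other genes, 1 co-repressor gene and 5 genes of other families. Other settings gave between 60 (no filter) and 109 (length-weighted sum) calls among members, where the planned fit gave 85, and no filter gave 13 genes of other families. A pseudocount of 1 gave 24 member transcripts. For these changes the cause was not tested, except that fewer libraries enter a fit that leaves 1 out. Over 28 named genes, 498 alternative values split into 362 with the same call and direction, 96 in which a call was lost, 7 in which one was gained and 33 of opposite sign, all of the last in genes that did not pass the test. After correction on GC content, log2 fold changes turned to 0.11 for Zfp523, -0.47 for Zfp706, -0.065 for Zfp422, 0.13 for Zfp219, -0.18 for Zfp607 and 0.19 for Zfp628. After correction on GC content and length they were 0.15 for Zfp523, -0.44 for Zfp706, -0.042 for Zfp422, 0.038 for Zfp219, -0.32 for Zfp607, 0.047 for Zfp628 and -0.068 for Zfp114, and with the replicate block added 0.14, -0.38, -0.038, 0.057, -0.27, 0.088 and -0.080 in the same order. The replicate block alone gave 0.012 for Zfp628, median-ratio scaling -0.11 for Zfp532, and the length-weighted sum -0.022 for Zfp532 and 0.26 for Zfp568. With 1 library left out the range was -0.26 to 0.016 for Zfp523, -0.14 to 0.29 for Zfp532, -0.28 to 0.11 for Zfp219, -0.38 to 0.072 for Zfp568, -0.072 to 0.012 for Zfp628 and -0.056 to 0.29 for Zfp114. Chosen after seeing the data, leaving out the 37 members that share sequence gave 75 calls and leaving out the X-linked members gave 82.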
